A study of Homo sapiens with 2 samples.

Results

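The secreted Wnt antagonists described here are 9 genes, taken as a family: SFRP1, SFRP2, SFRP4 and SFRP5, DKK1, DKK2, DKK3 and DKK4, and WIF1. Earlier results of these data were known when the genes were chosen. The repressive histone mark H3K27me3, in which lysine 27 of histone H3 carries 3 methyl groups, was mapped around their starts by ChIP-seq in HCT116, an established line of human colorectal carcinoma cells. The labels give 1 group of 2 libraries, replicates 1 and 2, from cells crosslinked with formaldehyde and precipitated with an antibody to H3K27me3. The labels call them biological replicates and name no treatment. The line stands for a single tumour, and no input library was used here. The level of a gene is its reads in the 10 bins of 1 kb within 5 kb of the start, over the library's mean listed autosomal bin. An average listed bin held 22 reads in replicate 1, at a total depth of 53187504 reads, and 37.5 in replicate 2, at 97031399 reads. Levels are folds over this mean on hg19, they are set beside 2671407 windows of the same width over the autosomes, and copy number and mappability are not corrected.

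Wnt ligands act through Frizzled receptors and the co-receptors LRP5 and LRP6 and stabilise beta-catenin, the signal on which intestinal stem cells depend. Secreted frizzled-related proteins (SFRP) and WIF1 bind the Wnt ligand itself, while Dickkopf proteins such as DKK1 bind LRP5 and LRP6. HCT116 cells carry an activating mutation of beta-catenin, which acts below all of these antagonists. H3K27me3 is deposited by Polycomb repressive complex 2, typically around CpG-rich gene starts that are kept silent. SFRP, DKK and WIF1 promoters are also known as frequent sites of DNA methylation in colorectal cancer. DNA methylation and expression were not measured here.

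To show the sequence before starts of differing level within 5 kb, 4 promoters are given, 5′ to 3′, with each CG dinucleotide in capitals. Each is the 250 bases before the start in RefSeq on GRCh38. WIF1 and SFRP2 had raised H3K27me3 within 5 kb of their starts, and SFRP5 and DKK1 did not. The last kb before the start, where these bases lie if the starts are exact, was itself under the mean in all 4. In replicates 1 and 2 it had 0.682 and 0.773 in WIF1 and 0.273 and 0.533 in SFRP2. SFRP5 had 0.682 and 0.373 there, and DKK1 0.136 and 0.
WIF1, chr12:65121306-65121555, minus strand: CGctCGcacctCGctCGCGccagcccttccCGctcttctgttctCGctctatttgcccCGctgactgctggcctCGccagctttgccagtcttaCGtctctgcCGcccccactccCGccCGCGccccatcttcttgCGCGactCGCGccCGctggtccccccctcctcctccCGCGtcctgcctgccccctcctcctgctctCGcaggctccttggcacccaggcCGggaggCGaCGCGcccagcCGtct
SFRP2, chr4:153789084-153789333, minus strand: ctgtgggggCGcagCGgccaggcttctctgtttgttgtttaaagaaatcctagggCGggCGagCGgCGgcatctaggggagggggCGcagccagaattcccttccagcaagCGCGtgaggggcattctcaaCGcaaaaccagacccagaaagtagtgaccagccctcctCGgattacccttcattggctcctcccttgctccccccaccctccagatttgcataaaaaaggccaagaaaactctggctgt
SFRP5, chr10:97772000-97772249, minus strand: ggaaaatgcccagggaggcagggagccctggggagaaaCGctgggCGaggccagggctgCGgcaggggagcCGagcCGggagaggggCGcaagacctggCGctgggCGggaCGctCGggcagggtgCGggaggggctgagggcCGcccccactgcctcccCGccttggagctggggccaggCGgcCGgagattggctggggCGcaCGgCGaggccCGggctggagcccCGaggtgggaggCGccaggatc
DKK1, chr10:52314031-52314280, plus strand: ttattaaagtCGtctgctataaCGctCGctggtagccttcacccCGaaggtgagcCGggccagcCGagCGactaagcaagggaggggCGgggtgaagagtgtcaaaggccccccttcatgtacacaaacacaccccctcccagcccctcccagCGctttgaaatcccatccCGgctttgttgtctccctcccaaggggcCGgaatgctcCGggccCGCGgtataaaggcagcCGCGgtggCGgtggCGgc
The RefSeq table matched 5 of the 9 genes. WIF1 had 27 CG, SFRP5 21, DKK1 18, SFRP4 17 and SFRP2 11 in 250 bases, against a median of 11 over 35116 promoters of the same length, with quartiles of 3 and 23. CG was searched by its letters, which read the same on both strands, and 93.9% of all promoters held at least 1. The number of CG did not follow the level within 5 kb in these 5 genes: SFRP5 and DKK1 had more of them than SFRP2, and a lower level. That level covers far more than the 250 bases. In SFRP2 it came mostly from the 5 kb downstream, at 3.02 and 2.77, and the 5 kb upstream had 0.318 and 0.533. All coordinates that follow are on hg19.

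The 9 genes spread over the whole range from strongly depleted to moderately marked. WIF1, DKK3 and SFRP1 were enriched, SFRP2 and SFRP4 lay between 1.46 and 1.67, DKK4 lay below the mean, and SFRP5, DKK2 and DKK1 carried little of the mark. A window counted as enriched by a one-sided Poisson test against the library's mean, Benjamini-Hochberg adjusted over all autosomal windows at steps of 1 kb, if its level was also at least 2, in both libraries. By this rule 3 of 9 genes were enriched, where 13.6% of all windows were. All windows cover the genome evenly and are not gene starts, so this background does not stand for promoters. The median over the 9 genes was 1.53, and over all windows it was 0.344. A level under 0.5 in both libraries was found in 3 of 9 genes and in 57.8% of windows. The order was WIF1, DKK3, SFRP1, SFRP2, SFRP4, DKK4, SFRP5, DKK2 and DKK1, and no neighbours in it had overlapping values in the 2 libraries. Among the genes above DKK4 this order changed with the window width, a move of 1 kb and scaling to the own chromosome. DKK3 came first within 10 kb and with windows moved 1 kb to lower coordinates, and SFRP2 when scaled to the own chromosome. DKK4, SFRP5, DKK2 and DKK1 kept their places under all alternatives run. Windows differed between the replicates with a variance 2.66 times that of independent reads, and with this the counting error of SFRP2 and SFRP4 in replicate 1 was 8.51% and 8.69% of the level, more than the gap between them there.

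**Figure D1:**
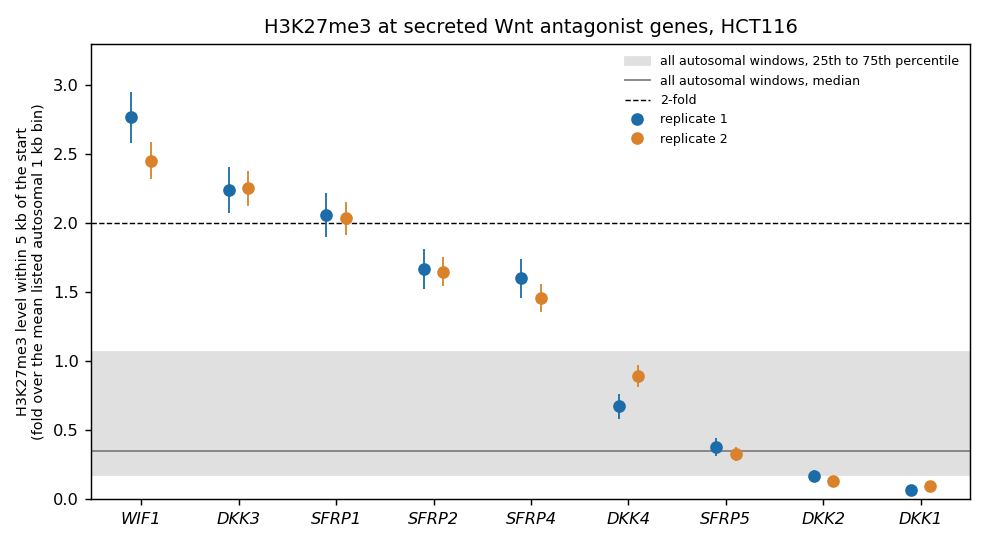
H3K27me3 level within 5 kb of each start (y axis, fold over the mean listed autosomal 1 kb bin) for the 9 genes (x axis), 1 point for each library. Bars are the counting error widened for the dispersion between libraries, the grey band and line are the quartiles and median of all autosomal windows averaged over the libraries, and WIF1, DKK3 and SFRP1 lie above the dashed line at 2-fold in both libraries.

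Of the ligand-binding antagonists, WIF1 stood highest within 5 kb on the scale of all listed autosomal bins. It lies on chromosome 12 with its start at 65515 kb and had 609 reads in replicate 1 and 921 reads in replicate 2 within 5 kb, a level of 2.77 and 2.45 (2.61 ± 0.222, SD, n = 2). These values fell at percentiles 91.0 and 88.3 of all windows in their library, so a WIF1 level was common among marked regions. The mark had 2 crests around the start. Upstream, the bin from 4 to 3 kb before the start reached 4.95 and 4.45, and downstream the bin from 2 to 3 kb after it reached 5.36 and 3.46. Between them the last kb before the start had 0.682 and 0.773. Both libraries thus had a trough just before the start, while the downstream crest was higher in replicate 1.

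SFRP1, a secreted frizzled-related protein that is widely studied as a silenced gene in colon cancer, starts on chromosome 8 at 41167 kb. It had 453 and 764 reads, or levels of 2.06 and 2.04 (2.05 ± 0.0166, SD, n = 2), and so passed the minimum of 2 narrowly. The mark was high from 1 to 5 kb inside the gene, where the bin from 3 to 4 kb had 3.05 and 3.62. The first kb inside the gene had only 0.50 and 0.373. The strongest signal lay farther out, upstream of the gene: the bin from 15 to 14 kb before the start had 6.54 and 6.55, the highest mean of the libraries within 50 kb of any of the 9 starts.

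SFRP2 had the sharpest step at its start. Its start lies on chromosome 4 at 154710 kb, and the window held 367 and 619 reads, a level of 1.67 and 1.65 (1.66 ± 0.0134, SD, n = 2), just under the minimum. The 5 kb downstream stood at 3.02 in replicate 1 and 2.77 in replicate 2. The 5 kb upstream stood at 0.318 and 0.533. The mark thus covered the beginning of the gene and not the region before it, with a ratio of 9.49 and 5.19 between the sides. By the mean of the libraries its highest bin within 50 kb was that from 1 to 2 kb inside the gene, with 4.0 and 3.57, and in replicate 2 the next bin had 3.60.

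SFRP4, on chromosome 7 at 37956 kb, had 352 and 548 reads, a level of 1.60 and 1.46 (1.53 ± 0.0989, SD, n = 2). Its bins within 5 kb ran from 0.318 to 3.00 in replicate 1 and from 0.107 to 2.69 in replicate 2. The level was higher farther downstream, as given with its surroundings. SFRP5, on chromosome 10 at 99532 kb, differed from the other SFRP genes in having little of the mark. It had 83 and 122 reads, a level of 0.377 and 0.325 (0.351 ± 0.0369, SD, n = 2), close to the median of all windows. No bin within 5 kb of SFRP5 exceeded 0.864 in replicate 1 or 0.746 in replicate 2.

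Among the Dickkopf genes, DKK3 was enriched and the genes of the LRP-binding members were not. DKK3 encodes a divergent Dickkopf protein that is often described as a tumour suppressor, and it starts on chromosome 11 at 12031 kb. It had 493 and 846 reads, or levels of 2.24 and 2.25 (2.25 ± 0.00935, SD, n = 2). The first kb inside DKK3 had 0.0909 and 0.373, while the bin from 4 to 5 kb inside had 6.14 and 6.05. The mark was thus higher farther into the gene, and the stretch from 5 to 10 kb inside stood at 4.96 and 4.76.

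DKK4, on chromosome 8 at 42235 kb, had 148 and 334 reads, a level of 0.673 and 0.890 (0.781 ± 0.154, SD, n = 2). Its signal lay before the gene, the reverse of SFRP2. The 5 kb downstream had 0.136 and 0.309, and the 5 kb upstream had 1.21 and 1.47. The highest bin, from 3 to 2 kb before the start, reached 1.86 and 1.97, so no bin within 5 kb of DKK4 passed the minimum in either library. DKK4 was the gene whose 2 libraries differed by the most among those between 0.5 and 2.

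DKK2 and DKK1 were the poorest of the 9. DKK2, on chromosome 4 at 107957 kb, had 37 and 48 reads, a level of 0.168 and 0.128 (0.148 ± 0.0285, SD, n = 2). DKK1, the best known LRP-binding antagonist and itself a Wnt target, starts on chromosome 10 at 54074 kb and had 14 and 36 reads. Its level of 0.0636 and 0.0959 (0.0798 ± 0.0228, SD, n = 2) lay at percentiles 2.72 and 5.38 of all windows. H3K27me3 at DKK1 was thus lower than in most autosomal windows, with a counting error of 43.6% and 27.2% of the level. Of the 100 bins within 50 kb of DKK1, 36 in replicate 1 and 14 in replicate 2 held no read, and for DKK2 there were 16 and 8 such bins.

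**Figure D2:**
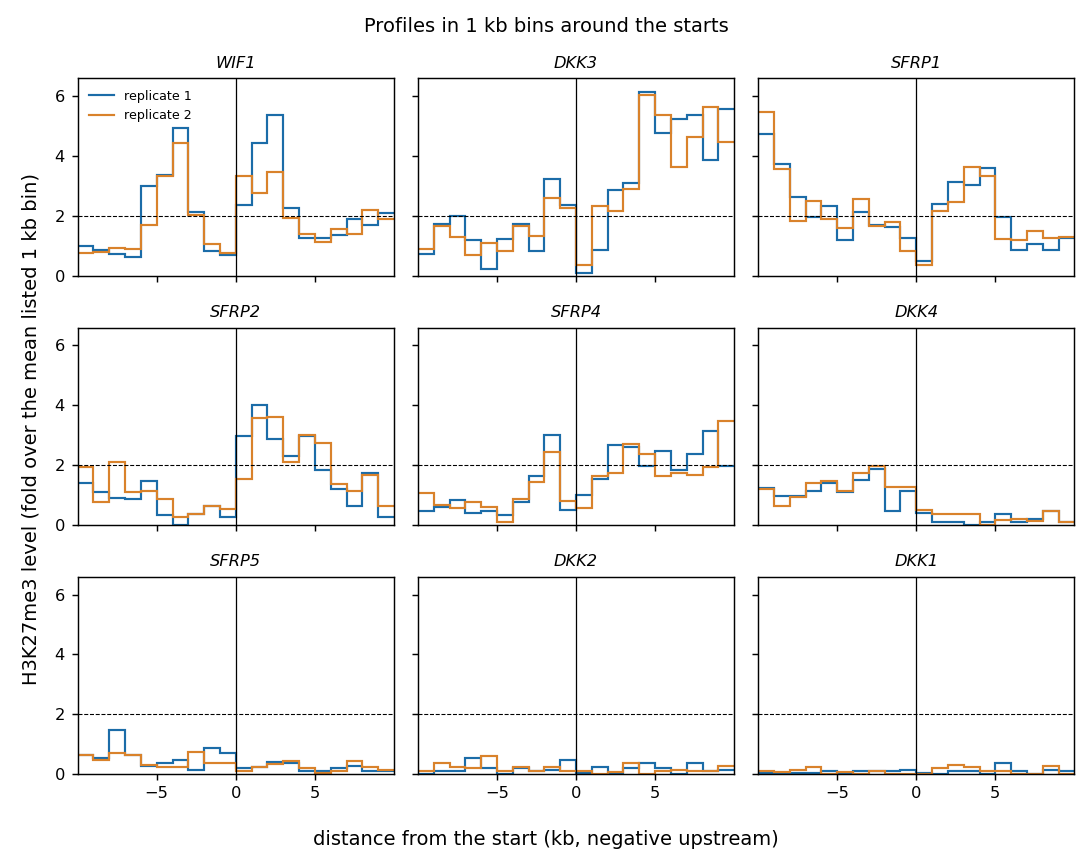
H3K27me3 level (y axis, fold over the mean listed 1 kb bin) in 1 kb bins from 10 kb upstream to 10 kb downstream of each start (x axis, kb in the direction of the gene), 1 line for each library and a dashed line at 2-fold. Both libraries show a low kb beside the start of DKK3 and SFRP1 and 2 crests around WIF1, and DKK4, SFRP5, DKK2 and DKK1 stay under 2 throughout.

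At 1 kb resolution the mark was uneven around the starts. Of the 90 bins within 5 kb of the 9 starts, 22 were enriched in both libraries (24.4%), where 12.7% of all autosomal 1 kb bins listed in either library were. WIF1 held 6 of them, DKK3 and SFRP1 held 5 each, SFRP2 held 4 and SFRP4 held 2. SFRP5, DKK1, DKK2 and DKK4 held 0. The same test was used, adjusted over all such bins.

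In the 5 genes with a level of at least 1 in both libraries, a limit chosen after the values had been seen, the 2 bins touching the start were lower than the other 8 in both libraries. The same was true of 41.5% of all windows at that level. For SFRP1 the ratio of these bins to the other 8 was 0.377 in replicate 1 and 0.250 in replicate 2. For SFRP4 it was 0.414 and 0.410. These were the 2 genes under 0.5 in both libraries, which 5.81% of such windows were. DKK3 had 0.492 and 0.530, WIF1 had 0.494 and 0.803, and SFRP2 had 0.959 and 0.577, so the trough differed between the libraries in WIF1 and SFRP2. Since the starts are given to the kb, the bin that holds the start can be either of the 2.

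The gene side carried more of the mark than the upstream side in these 5 genes. The 5 kb downstream over the 5 kb upstream gave 1.60 and 1.42 in SFRP1, 1.57 and 1.60 in SFRP4, 1.39 and 1.59 in DKK3 and 1.32 and 1.11 in WIF1, besides the step of SFRP2. All 5 lie on the minus strand, and in 44.0% of all windows of at least 1 the side at lower coordinates was the higher in both libraries. SFRP5 had the opposite order, with 0.255 and 0.261 downstream and 0.50 and 0.389 upstream.

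The genes also differed in their surroundings. Domains were formed from 5 kb bins that passed the same rule in both libraries, as 13.4% of autosomal 5 kb bins did, joined across gaps of at most 1 bin. Domain levels cover only the 5 kb bins that passed, and bins joined as gaps were left out. Such levels are therefore at least 2 by construction and do not describe the whole span where a gap was joined. The start of SFRP1 lay within the span of a 35 kb domain, chromosome 8 from 41160001 to 41195000. This domain lay mostly upstream of the gene, and its bins that passed had a level of 3.25 ± 0.136 (SD, n = 2). The 5 kb bin holding the start was itself under 2-fold and was joined as a gap. In it the last kb before the start had 1.27 and 0.826, and the first kb inside the gene 0.50 and 0.373. The domain stood in a generally marked region: within 50 kb, 36 of 100 bins were enriched in both libraries and the level was 2.01 in replicate 1 and 2.11 in replicate 2. Here the start was no higher than its surroundings, as the 10 bins within 5 kb stood at 1.03 and 0.963 of the bins from 5 to 50 kb.

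WIF1 had a domain of 10 kb over its start, from 65510001 to 65520000 on chromosome 12, and another of 30 kb downstream, from 65465001 to 65495000, at 2.98 and 3.05. Of its 100 bins 29 were enriched, 25 of them downstream of the start. From 5 to 50 kb the level was 2.41 and 2.45 downstream, and 0.926 and 1.06 upstream. DKK3 had a domain of 15 kb inside the gene, from 12015001 to 12030000 on chromosome 11, with a level of 4.02 ± 0.0197 (SD, n = 2), the highest among the domains within 50 kb of a start. From 5 to 50 kb downstream the level was 1.73 and 1.74, and on the upstream side, towards MICAL2, it was 0.570 and 0.603. DKK3 and WIF1 thus shared a marked downstream side and a poorer upstream flank, and SFRP4, given next, had the same.

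SFRP4 bordered the longest of these domains. It ran over 65 kb of chromosome 7 (37890001 to 37955000) and ended 1 kb short of the start, on the downstream side. Its bins that passed had a level of 2.35 ± 0.115 (SD, n = 2). How much of the domain lies within SFRP4 itself was not determined. From 5 to 50 kb downstream, towards NME8, the level was 2.09 and 2.36, and upstream, towards EPDR1, it was 0.740 and 0.820. SFRP2 was the reverse in extent, with a single enriched 5 kb bin, chromosome 4 from 154705001 to 154710000, whose level was 2.89 ± 0.179 (SD, n = 2). Its flanks from 5 to 50 kb were at 0.642 and 0.738 downstream and 0.716 and 0.795 upstream, with 0 enriched bins on either side. The mark at SFRP2 was thus narrow, and the window stood at 2.46 and 2.15 times its surroundings.

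No domain lay within 50 kb of SFRP5, DKK1, DKK2 or DKK4. The upstream flank of SFRP5, towards GOLGA7B, was at 1.05 and 1.17 from 5 to 50 kb and held 3 enriched bins, while the downstream flank, towards ZFYVE27, was at 0.248 and 0.249. DKK4 lay in a region at 0.212 and 0.223 from 5 to 50 kb, between VDAC3 upstream and POLB downstream, and its own window stood 3.18 and 3.98 times above that. The nearest domain was 155 kb from DKK4, a distance that 48.7% of all windows reached. DKK2 was 1018 kb and DKK1 1574 kb from the nearest domain, and 20.5% and 14.8% of all windows were at least as far. Within 50 kb DKK1 stood at 0.105 and 0.133 and DKK2 at 0.198 and 0.184, so the low levels at these starts were shared by their surroundings. Neighbouring genes are named from the gene order in the RefSeq table on GRCh38.

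**Figure D3:**
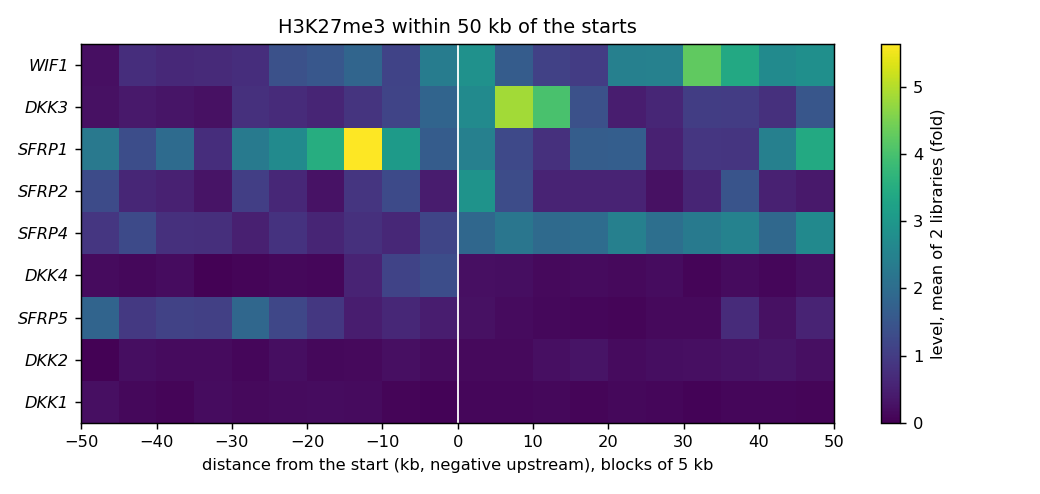
H3K27me3 level as the mean of the 2 libraries (colour, fold over the mean listed 1 kb bin) in blocks of 5 kb from 50 kb upstream to 50 kb downstream of each start (x axis, kb in the direction of the gene), with genes in the order of their level within 5 kb. The downstream side of WIF1, DKK3 and SFRP4 is brighter than the upstream side, SFRP1 has its brightest block upstream, and DKK1 and DKK2 are dark throughout.

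Chromosomes differed in their mean level, and this bears on the calls. With levels scaled to the listed bins of the own chromosome, SFRP2 stood at 2.85 and was enriched, while SFRP1 at 1.58 and DKK3 at 1.90 no longer were. WIF1, at 2.62, was enriched on both scales. Within 2 kb of the start no gene was enriched, with SFRP1 at 1.37, DKK3 at 1.77 and WIF1 at 2.03 over the libraries, and within 10 kb WIF1, with a mean of 2.00, was under 2 in 1 library.

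Other genes of the Wnt pathway were read in the same way, 19 in all, with starts to the kb taken from general knowledge of hg19. The list was chosen with earlier results of these data known, so its counts are descriptive only. Of these 4 were enriched (21.1%), where 13.6% of all windows were, and 6 lay under 0.5 in both libraries, where 57.8% of all windows did. The median of the 19 was 0.643, against 1.53 in the 9 antagonists. RNF43, which encodes a ubiquitin ligase that removes Frizzled receptors from the membrane, was the highest at 8.20 in replicate 1 and 8.34 in replicate 2. CER1, a secreted antagonist of early development, followed at 4.51 and 4.66. The other enriched genes, named after their values were seen, were APCDD1, a membrane-bound inhibitor, at 4.31 and 4.62, and LGR5, the R-spondin receptor that marks intestinal stem cells, at 2.74 and 3.02. On the scale of all listed autosomal bins, each of these 4 stood above every one of the 9 antagonists except for LGR5 in replicate 1, where WIF1 had 2.77. No values scaled to the own chromosome are given for the 19 genes. The 2 lowest were ZNRF3, the relative of RNF43, at 0.232 and 0.155, and KREMEN2, a Dickkopf receptor, at 0.20 and 0.109. Both of them still stood above DKK1 in each library.

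By role, 2 of 6 further antagonists, 1 of 6 receptors and co-receptors and 1 of 7 feedback genes and Wnt transcription factors were enriched, beside 13.6% of all windows. With so few genes in each role, these counts single out none of them. Their median levels were 0.830, 0.509 and 0.617. LRP5 and LRP6, the co-receptors that Dickkopf proteins such as DKK1 bind, had 0.236 and 0.224, and 0.268 and 0.264, in replicates 1 and 2. They were named after their values were seen. DKK1 and DKK2 stood below both co-receptors in each library, and the other antagonists, DKK3, DKK4 and SFRP5 among them, stood above. No test of a list was made.

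**Figure D4:**
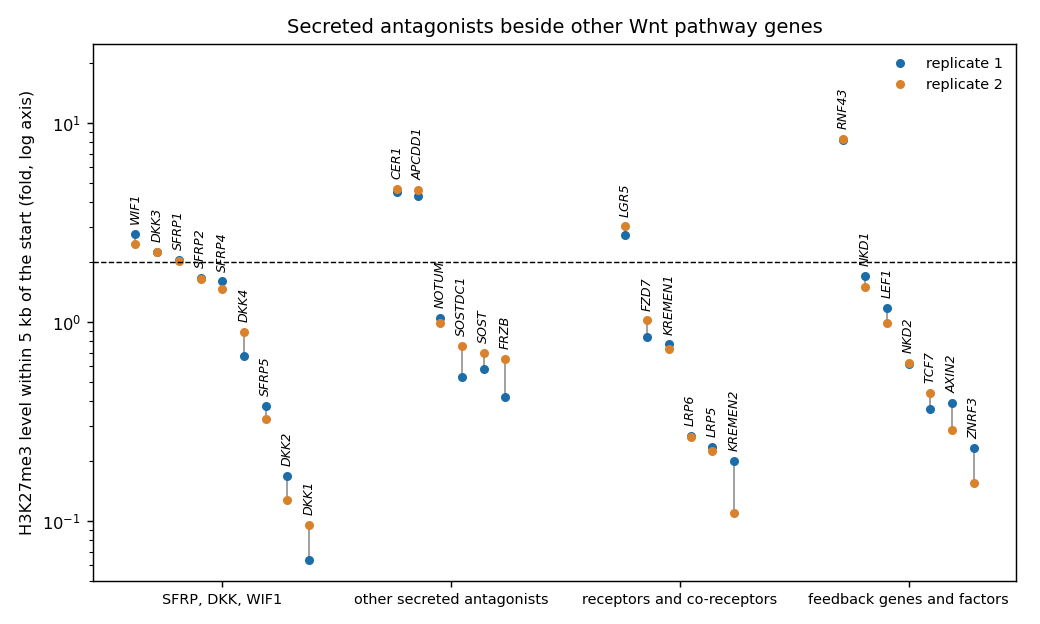
H3K27me3 level within 5 kb of the start (y axis, log scale, fold over the mean listed 1 kb bin) for the 9 antagonists and 19 other Wnt pathway genes by role (x axis), 1 point for each library joined by a line. RNF43, CER1, APCDD1 and LGR5 lie above the dashed line at 2-fold beside WIF1, DKK3 and SFRP1, and DKK1 is the lowest of all in both libraries.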

How the data were processed

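The authors deposited raw read counts per bin of 1000 bases. Bins without a read are absent from the files and were set to 0. The submitters' processing notes name BWA 0.7.12 and the build hg19. How reads were counted and whether duplicates were removed is not given in the sources used here. Starts of the 9 genes were given to the kb. Strands of all 9 were entered by hand. They matched the RefSeq promoter table in the 5 genes found there, and rest on general knowledge for the others. Counts were summed over 10 bins, divided by the mean of listed autosomal bins, tested by a Poisson test and adjusted as described, on the autosomes only. The dispersion of the split of reads between libraries, over windows with at least 10 reads, was 2.66 for windows and 2.51 for 1 kb bins. The calling of windows was tested on simulated Poisson counts over an even background. That simulation had neither the dispersion between these libraries nor their uneven background. All 9 genes are named by rule, and of the other Wnt genes the 2 highest and the 2 lowest; APCDD1, LGR5, LRP5 and LRP6 were named after their values were seen. The genes and lists were chosen with earlier results of these data known. With 1 group, no conditions were compared, and the spread between the libraries may be technical. Alternatives were other fold minimums, windows, start positions, scalings, counts divided by the dispersion, and each replicate left out. The limits for troughs were added after the values had been seen. The errors given in percent of a level are counting errors widened by this dispersion. Computation used scipy 1.17.1, pandas 2.3.3 and numpy 2.4.6 under Python 3.11.15, and plots used matplotlib 3.10.9.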

Additional observations from a re-analysis of the deposited data

How the results depend on the processing

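The 3 enriched genes became 0 at a minimum of 3-fold and within 2 kb of the start, 5 without a fold minimum and when scaled to the median listed bin, and 1 with windows moved 1 kb to higher coordinates, where only WIF1 passed. SFRP1 was also lost with windows moved 1 kb to lower coordinates. With each replicate left out the number stayed at 3, but it could not fall, since a call in both libraries includes a call in each. With counts divided by the dispersion it also stayed at 3, and this alters only the adjusted p, not the level. The 22 enriched 1 kb bins became 7 at 3-fold and 42 when scaled to the median listed bin, and lay between 24 and 25 with a replicate left out. The median of the 9 genes, 1.53, became 1.37 within 2 kb, 1.71 and 1.37 with windows moved to lower and higher coordinates, 1.81 when scaled to all autosomal bins and 3.91 when scaled to the median listed bin, and lay between 1.46 and 1.60 with a replicate left out. The 2 genes with a trough under 0.5 became 5 at a ratio limit of 1, and 2 to 4 with a replicate left out, 4 of them in replicate 1 alone. Of 108 calls of single genes under these alternatives, 91 were kept, 12 were lost and 5 were gained. With a replicate left out, enriched genes, enriched bins and troughs could be gained but not lost. What caused these moves was not tested. A start misplaced by 1 kb, the fold minimum and the scaling can each decide a call near 2-fold, while SFRP5, DKK1, DKK2 and DKK4 were enriched under none of the alternatives run. DKK1 and DKK2 rest on 14 to 48 reads per library. No paired analysis was possible because the labels give a single group.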
